A study of Mus musculus with 6 samples.

Results

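The genes described here are 56 genes of the cell cycle and of DNA replication, compared between a pair of sorted cell fractions of the newborn mouse cerebellum. They comprised 18 genes active in S phase, 25 mitotic genes, 10 regulators of G1 and 3 inhibitors of cyclin-dependent kinases, and were found on the array by their gene symbols among 22374 genes with a known symbol. The array held 80 probes for them, and a gene is described by its brightest probe, that is, the probe with the highest mean over all 6 arrays.

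A+/G+ cells carry ACSA-2, an epitope of the sodium pump subunit encoded by Atp1b2, and the glutamate transporter GLAST, whereas A-/G+ cells carry GLAST without ACSA-2. Wild-type mice of the strain CD1 were used at postnatal days 1 to 3 according to the sample labels, whereas the methods of the study give a slightly younger age and a C57BL/6 background. The A+/G+ cells were selected with magnetic beads against ACSA-2. The A-/G+ cells were left after cells bearing ACSA-2, L1CAM, PSA-NCAM, CD45 or Ter119 had been removed and were then selected for GLAST. Cerebella of either sex were pooled, and each of the 3 independent samples per fraction held 50000 cells and was hybridized to 1 array. The RNA was labeled with a single dye, and the values are log2 intensities after quantile normalization. The 75th percentile of the raw intensity was between 332 and 334.4 on the A+/G+ arrays and between 56.62 and 250.9 on the A-/G+ arrays, and the number of arrays limits the precision. Slide 1 carried the A+/G+ samples and slide 2 the A-/G+ samples, and a slide effect and a fraction effect therefore cannot be told apart. Atp1b2 was higher in A+/G+ by 2.16 ± 0.18 (SE, n = 3 per fraction; limma, adjusted p = 0.0073), which is the sort marker. All 8 astroglial markers were clearly detected on each of the 6 arrays, and they did not move together. The difference of Aldh1l1 was 0.64 ± 0.12 toward A-/G+ (adjusted p = 0.045), Slc1a3, which encodes GLAST, differed by 1.19 ± 0.29 in the same direction without overlap (adjusted p = 0.073), and Fabp7 differed by -0.06 ± 0.20. The part of these differences in those of the cell cycle genes was not tested.

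A dividing cell passes from G1, where D and E type cyclins with their kinases release the E2F transcription factors, to S phase, where the DNA is copied, and then to mitosis. Genes of S phase are typically switched on by E2F factors. Genes of mitosis follow later and are typically controlled through CCAAT boxes, which bind NF-Y, and through the cell cycle genes homology region (CHR), which binds the DREAM complex and the complex of B-Myb and FoxM1. In the newborn cerebellum, granule neuron precursors, progenitors of interneurons and astroglial precursors all still divide.

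Promoter windows of the members were searched for the letters of these sites. RefSeq (GRCm38.p6) promoter windows, which run from 250 bases before to 50 bases after a start site, matched 43 of the 56 genes. Both strands were searched for the E2F letters TTTCCCGC, TTTGGCGC, TTTGCCGC and TTTCGCGC, the CHR letters TTTGAA and the letters CCAAT. No motif contains another, but a palindromic E2F site was found on both strands. The E2F letters stood in 7 of the 14 S phase genes with a window, which are Mcm3, Mcm5, Mcm6, Mcm7, Cdc6, Cdt1 and Uhrf1, and in 1 of 19 mitotic genes, Cdk1, compared with 2.60% of 27025 genes. The CHR letters stood in 13 of the 19 mitotic genes and in 2 of the 14 S phase genes, compared with 20.2% of all genes. The CCAAT letters stood in 16 of the 19 mitotic and 11 of the 14 S phase genes, compared with 41.1% of all genes. These counts describe letters and not binding.

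The following stretches lie before the start site and are shown because they hold the letters whose counts differed between the S phase and the mitotic genes, with all searched letters in capitals. The windows of Mcm7 (chr5:138171890-138172063, minus strand), Cdc6 (chr11:98907998-98908035, plus strand) and Mcm6 (chr1:128359706-128359830, minus strand) carry E2F letters, GCGGGAAA being TTTCCCGC read on the other strand, and ATTGG is CCAAT on the other strand.
Mcm7: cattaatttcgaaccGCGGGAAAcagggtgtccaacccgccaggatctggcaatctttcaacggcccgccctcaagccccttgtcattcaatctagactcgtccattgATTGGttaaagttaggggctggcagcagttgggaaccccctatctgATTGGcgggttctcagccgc
Cdc6: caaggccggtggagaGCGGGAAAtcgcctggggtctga
Mcm6: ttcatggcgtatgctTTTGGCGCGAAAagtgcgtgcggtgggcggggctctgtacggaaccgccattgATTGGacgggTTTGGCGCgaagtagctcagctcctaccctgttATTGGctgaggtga
The windows of Ccnb2 (chr9:70421556-70421736, minus strand), Cdc20 (chr4:118437344-118437411, minus strand) and Mki67 (chr7:135716457-135716582, minus strand) carry CHR and CCAAT letters. That of Cdk1 (chr10:69352913-69353135, minus strand) carries all 3 kinds.
Ccnb2: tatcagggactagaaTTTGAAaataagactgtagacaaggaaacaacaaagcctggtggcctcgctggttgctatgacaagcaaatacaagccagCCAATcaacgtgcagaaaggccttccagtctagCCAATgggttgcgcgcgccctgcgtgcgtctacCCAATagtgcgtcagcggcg
Cdc20: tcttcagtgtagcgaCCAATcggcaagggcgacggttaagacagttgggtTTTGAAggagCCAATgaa
Mki67: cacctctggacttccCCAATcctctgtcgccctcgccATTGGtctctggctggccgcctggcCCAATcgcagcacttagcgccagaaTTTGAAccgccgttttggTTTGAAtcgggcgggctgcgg
Cdk1: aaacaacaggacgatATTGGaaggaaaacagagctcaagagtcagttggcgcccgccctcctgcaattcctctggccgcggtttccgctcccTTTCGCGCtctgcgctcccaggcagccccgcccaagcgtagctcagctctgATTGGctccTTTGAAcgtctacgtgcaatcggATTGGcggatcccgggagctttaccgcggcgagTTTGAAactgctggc

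**Figure D1:**
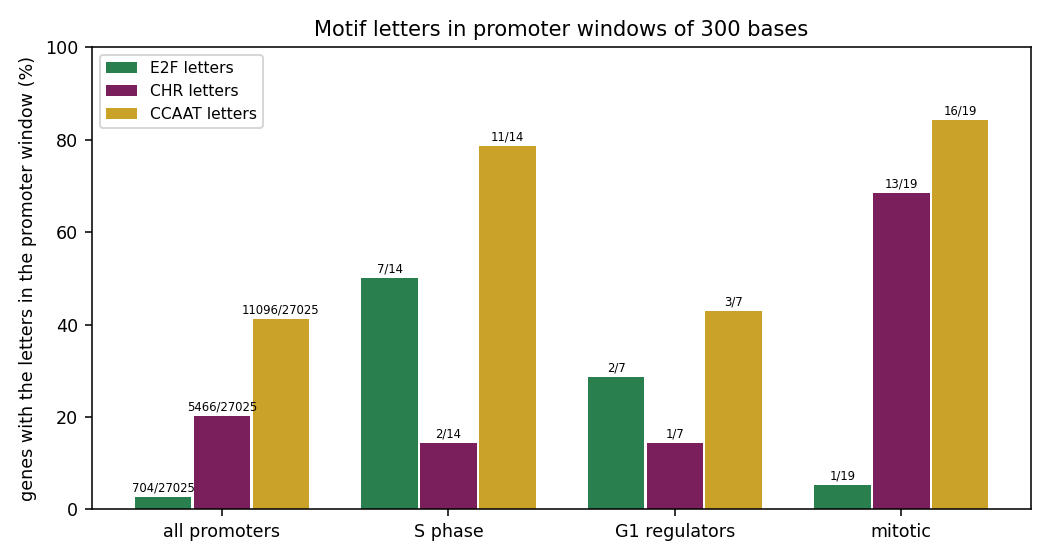
Share of genes (%) whose RefSeq promoter window holds the E2F, CHR or CCAAT letters on either strand, for all genes with a window and for the S phase, G1 and mitotic genes, with the number of genes above each bar. The E2F letters stand in 50.0% of the S phase genes and 5.26% of the mitotic genes, and the CHR letters in 14.3% and 68.4%.

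Cell cycle genes were higher in A-/G+. Of the 56 genes, 51 had the higher mean in A-/G+, and 18 of them passed the test (limma, Benjamini-Hochberg adjusted p at most 0.05 over all 55681 probes), whereas 1 gene, Ccnd3, passed in the other direction. Over all 22374 genes, 5.01% passed as higher in A-/G+ and 7.88% as higher in A+/G+. Among the 10982 genes well above background on all 6 arrays, which is where 49 of the 56 members and all 19 members past the test lie, these shares were 9.49% and 9.18%. The higher mean was in A-/G+ for 12268 of the 22374 genes and for 6050 of these 10982. The differences were moderate, from 0.33 on the log2 scale for Ccne1 to 1.32 for Ccnd1 among the 18 genes. The medians of the fractions were 4-fold apart for 0 of the 56 members at any p, compared with 1219 of the 22374 genes in either direction. Of all genes, 0.420% passed this limit together with the test as higher in A-/G+. On 40 of the 56 genes every A-/G+ array lay above every A+/G+ array, which held for 22.8% of all genes, and the reverse was seen for Ccnd3 alone, compared with 20.1% of all genes.

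The count of members past the test as higher in A-/G+ depended on single arrays, as did the share of all genes. The count was 4, 6 and 1 without A+/G+ replicates 1, 2 and 3, 11 and 7 without A-/G+ replicates 1 and 2, and 17 without A-/G+ replicate 3. The shares of all 22374 genes were 1.1%, 0.885%, 0.863%, 3.15%, 2.71% and 9.17% in the same order, compared with 5.01% on all 6 arrays. The number of genes with the higher mean in A-/G+ stayed between 49 and 52 in these 6 fits. With a shift to the 75th percentile in place of quantile normalization, all genes moved by a median of 0.34 toward A-/G+ and 20.9% of all genes were called higher there, so that the calls over all genes split as 4672 in A-/G+ and 1768 in A+/G+, compared with 1122 and 1764. Relative to this shift, the median difference was 0.27 for the S phase genes and 0.42 for the mitotic genes, compared with 0.55 and 0.69 under quantile normalization.

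**Figure D2:**
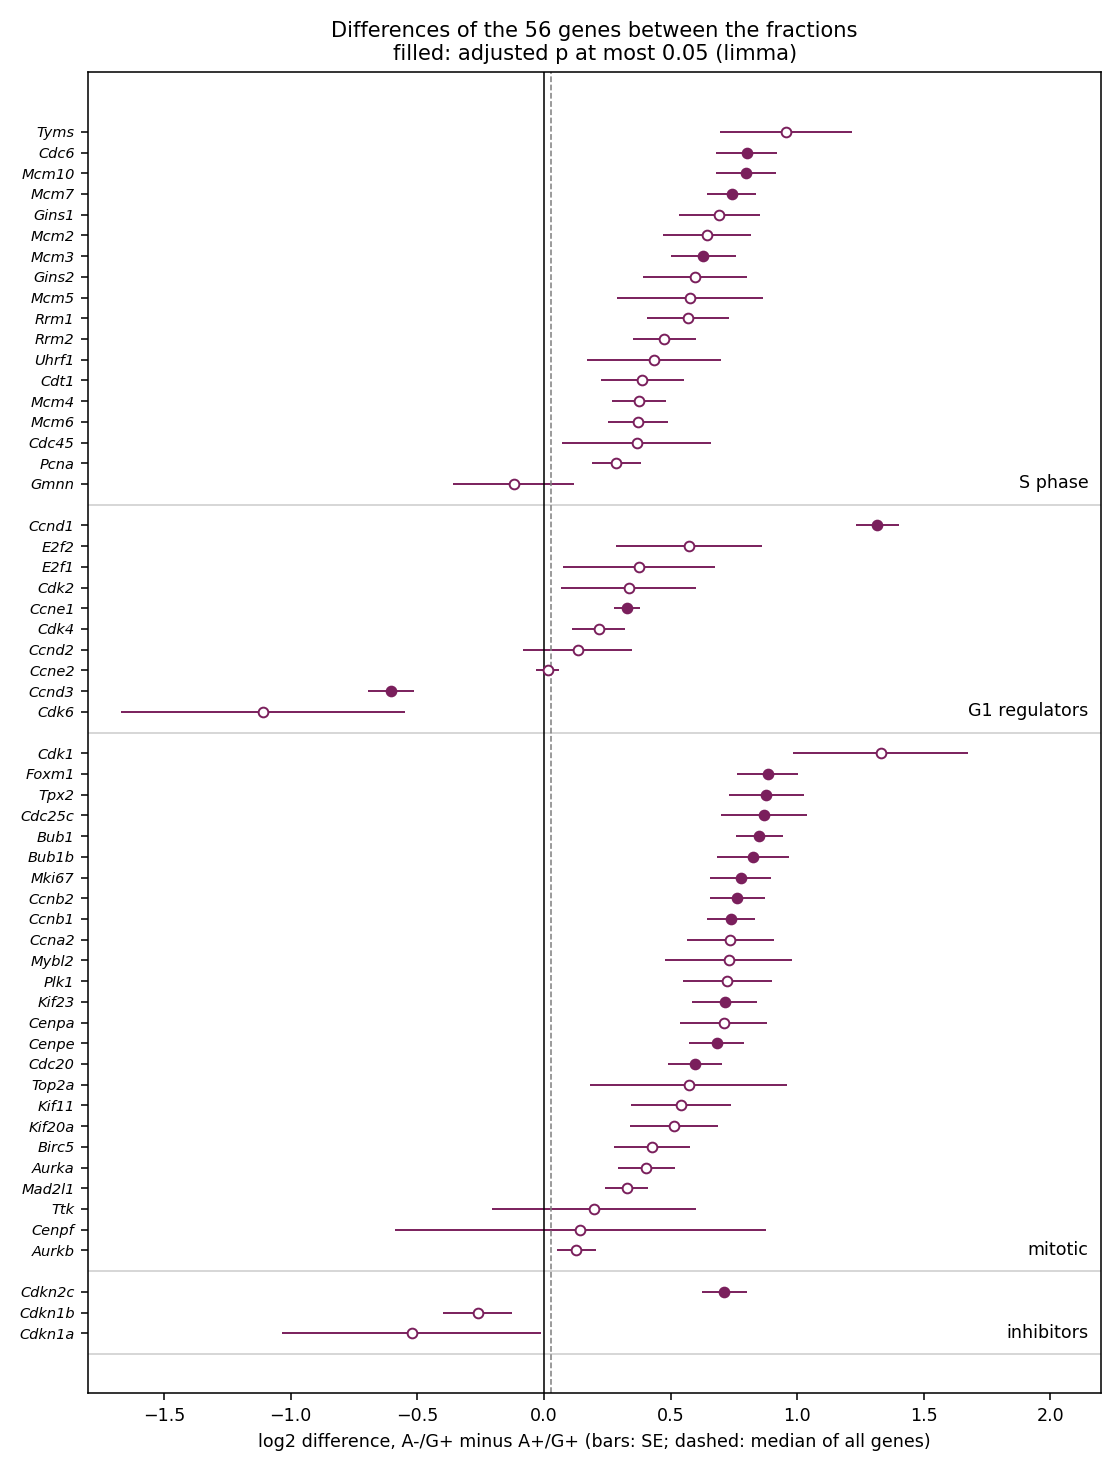
Difference in log2 intensity (A-/G+ minus A+/G+, x axis) of each of the 56 genes (y axis, grouped by list), with the standard error from limma and filled points for an adjusted p of at most 0.05. All 25 mitotic genes and 17 of the 18 S phase genes lie to the right of 0, and Ccnd3 is the filled point to the left.

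The S phase genes encode the helicase that unwinds DNA (Mcm2 to Mcm7 with Cdc45 and the GINS subunits), the factors that load it (Cdc6, Cdt1), the sliding clamp Pcna and enzymes of nucleotide supply. Their median difference was 0.57 (1.49-fold higher in A-/G+), compared with 0.03 over all genes. Of the 18 genes, 17 had the higher mean in A-/G+, 14 did not overlap between the fractions, and 4 passed the test, namely Mcm3, Mcm7, Mcm10 and Cdc6. Of all genes, 22.8% did not overlap in this direction. The share that passed in it was 5.01% of all genes and 9.49% of those well above background on all 6 arrays.

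Mcm7, a helicase subunit, measured 11.85, 12.14 and 11.94 on the A+/G+ arrays and 12.70, 12.66 and 12.80 on the A-/G+ arrays. The A-/G+ values were tightly grouped and all above the A+/G+ values, with a difference of 0.74 ± 0.10 (SE; adjusted p = 0.018). Mcm10, which helps to activate the helicase, measured 9.05, 9.31 and 9.13 in A+/G+ and 9.93, 9.82 and 10.14 in A-/G+. It was 1.74-fold higher in A-/G+ (adjusted p = 0.024). Cdc6 measured 6.03, 6.22 and 5.95 in A+/G+ and 6.68, 6.92 and 6.99 in A-/G+. It was likewise 1.74-fold higher in A-/G+ (adjusted p = 0.024), and a further, dim probe of Cdc6, detected clearly on 2 arrays of A+/G+ alone, gave -0.43 ± 0.59. Mcm3 differed by 0.63 ± 0.13 (adjusted p = 0.049), close to the threshold, and its other probe by 0.49 ± 0.16 (adjusted p = 0.16). The calls of Mcm7, Mcm10, Cdc6 and Mcm3 were kept in 12, 9, 7 and 4 of 15 alternative analyses.

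Several S phase genes did not pass the test although their arrays did not overlap. Pcna measured 12.42, 12.69 and 12.63 in A+/G+ and 12.78, 12.94 and 12.88 in A-/G+. The difference was 0.29, with a 95% confidence interval of 0.04 to 0.54 before adjustment over probes (adjusted p = 0.16). Mcm2 differed by 0.64 (0.19 to 1.09, adjusted p = 0.096) and Rrm2, the small subunit of ribonucleotide reductase, by 0.47 (0.16 to 0.79, adjusted p = 0.088). Gmnn, which encodes the inhibitor of Cdt1, was the single S phase gene with the higher mean in A+/G+ (difference -0.12 ± 0.24), and its arrays overlapped, as did those of Mcm5, Cdc45 and Uhrf1.

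**Figure D3:**
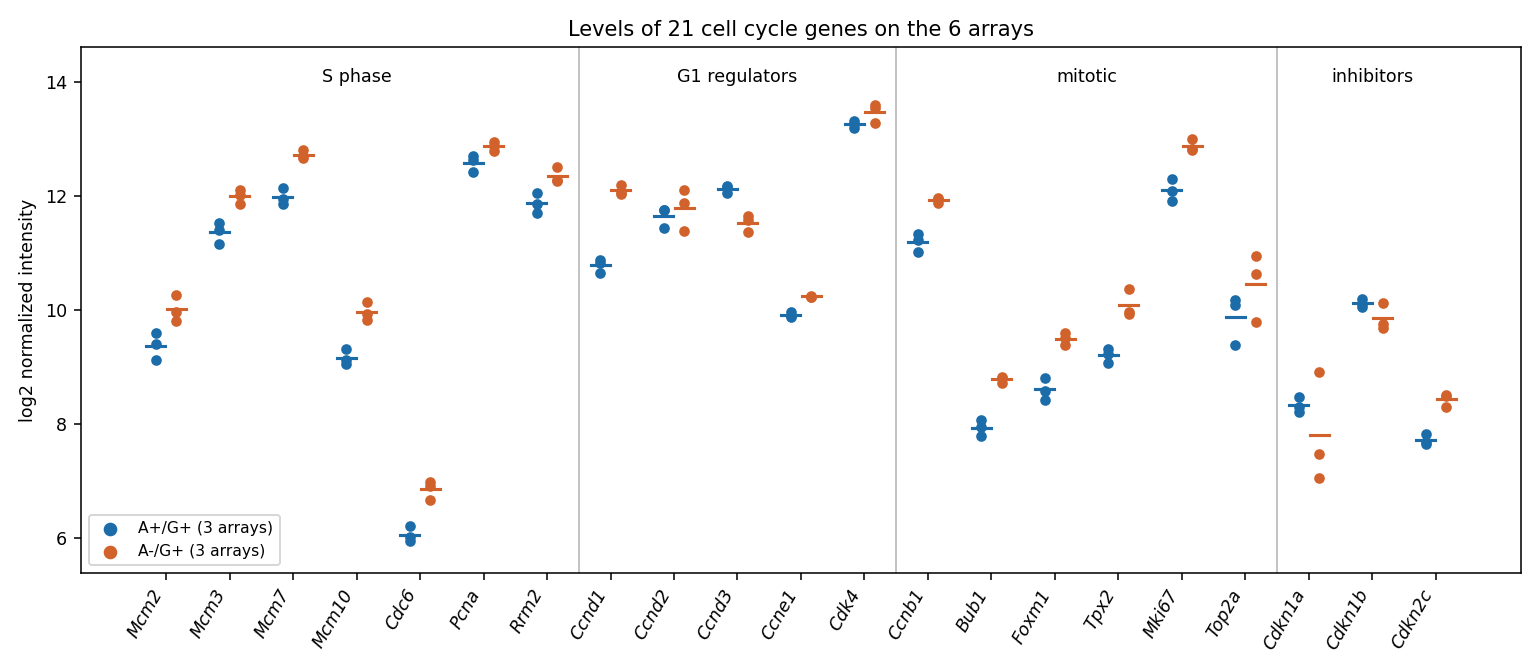
Log2 normalized intensity (y axis) of 21 members (x axis) on each A+/G+ array (blue points) and each A-/G+ array (orange points), with the mean of 3 arrays as a line. Ccnd1 shows the widest gap, Ccnd3 is reversed, and the A-/G+ values of Top2a and Cdkn1a are spread widely, from 9.79 to 10.95 and from 7.06 to 8.91.

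Mitotic genes showed the same direction with a larger median difference of 0.71 (1.64-fold higher in A-/G+). All 25 had the higher mean in A-/G+, 22 did not overlap, and 11 passed the test. The shares in this direction were 22.8% of all genes without overlap and 5.01% past the test (9.49% of those well above background on all 6 arrays). The genes past the test included the mitotic cyclins Ccnb1 and Ccnb2, the spindle checkpoint kinase genes Bub1 and Bub1b, the activators of mitotic exit and entry Cdc20 and Cdc25c, the spindle and kinetochore genes Tpx2, Cenpe and Kif23, the proliferation marker Mki67 and the transcription factor Foxm1.

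Mki67 measured 12.09, 12.29 and 11.91 on the A+/G+ arrays and 12.80, 12.82 and 13.00 on the A-/G+ arrays. The fractions were apart by 0.78 ± 0.12 (adjusted p = 0.027), and the other probe of Mki67 gave 0.95 ± 0.12 (adjusted p = 0.018). Bub1 measured 7.79, 8.08 and 7.95 in A+/G+ and 8.84, 8.81 and 8.72 in A-/G+. It was 1.80-fold higher in A-/G+ (adjusted p = 0.012). Foxm1, whose product drives transcription of genes of mitosis, measured 8.43, 8.81 and 8.59 in A+/G+ and 9.51, 9.38 and 9.59 in A-/G+, a 1.85-fold difference (adjusted p = 0.020).

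Ccnb1, the cyclin partner of Cdk1, measured 11.02, 11.33 and 11.22 in A+/G+ and 11.88, 11.94 and 11.96 in A-/G+. Its difference was 0.74 ± 0.09 (adjusted p = 0.017), and its other probes differed by 0.49 and 0.57 without passing the test. Tpx2 and Cdc25c were higher by 0.88 and 0.87 (adjusted p = 0.032 and 0.044). These differences of single mitotic genes lay close to each other, between 0.60 for Cdc20 and 0.88 for Foxm1 among the 11 genes past the test. Of 15 alternative analyses, 13 kept the call of Bub1, 11 those of Ccnb1 and Foxm1, and 10 that of Ccnb2. The calls of Bub1b and Cenpe were kept in 9 and that of Mki67 in 8. Those of Cdc20, Cdc25c and Tpx2 were kept in 7 and that of Kif23 in 5.

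The other 14 mitotic genes did not pass. Mad2l1, a gene of the spindle checkpoint, and Aurka, a spindle kinase gene, had smaller differences of 0.33 ± 0.08 and 0.40 ± 0.11 without overlap, and another probe of Mad2l1 passed with 0.75 ± 0.12 (adjusted p = 0.031). Cdk1, the kinase that starts mitosis, had dim probes, and its brightest was well above background on 1 array of each fraction. There it measured 3.63, 4.31 and 3.12 in A+/G+ and 5.34, 4.82 and 4.89 in A-/G+, with an adjusted p of 0.088, whereas its other probes differed by -0.58 each. Aurkb stayed near background on all 6 arrays. Top2a, a topoisomerase that untangles sister DNA, measured 9.39, 10.17 and 10.09 in A+/G+ and 9.79, 10.63 and 10.95 in A-/G+, so that the fractions overlapped and the confidence interval of the difference ran from -0.43 to 1.57.

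The calls of the G1 regulators went in both directions. Their median difference was 0.27, and 8 of 10 had the higher mean in A-/G+, the exceptions being Ccnd3 and the dim gene Cdk6. Of the 10 genes, 2 passed as higher in A-/G+ and 1 as higher in A+/G+, compared with 5.01% and 7.88% of all genes. The D type cyclins, which couple growth signals to the cell cycle, differed among themselves. Ccnd1 measured 10.65, 10.87 and 10.82 in A+/G+ and 12.05, 12.04 and 12.19 in A-/G+. It was 2.49-fold higher in A-/G+ (difference 1.32 ± 0.09, adjusted p = 0.0045), and this call was kept in 14 of 15 alternative analyses.

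Ccnd3 was the reverse, with 12.17, 12.16 and 12.05 in A+/G+ and 11.57, 11.37 and 11.64 in A-/G+. It was 1.52-fold higher in A+/G+ (adjusted p = 0.024), and its other probe differed in the same direction by 0.20, also without overlap (adjusted p = 0.14). This call was kept in 8 of 15 alternative analyses, as was that of Mki67 toward A-/G+. It was lost without any 1 of A+/G+ replicates 1, 2 and 3 or A-/G+ replicate 1, where no member passed as higher in A+/G+. The call was also lost with the shift to the 75th percentile, with the methods' t-test and with the replicate block. Ccnd2, the remaining D type cyclin, differed by 0.13 with an interval from -0.43 to 0.69, and its arrays overlapped.

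Among the other G1 genes, Ccne1, a cyclin of S phase entry, showed a small but tight difference of 0.33 ± 0.05 (adjusted p = 0.026), and its other probe gave 0.33 ± 0.06 (adjusted p = 0.044). The call was kept in 6 of 15 alternative analyses and was lost with the shift to the 75th percentile, with the filter on dim probes, with the variance trend, with the replicate block and without any 1 of A+/G+ replicates 1, 2 and 3 or A-/G+ replicates 1 and 2 (adjusted p between 0.054 and 0.18). Ccne2 stayed near background on all 6 arrays. E2f1 (0.38, interval -0.40 to 1.15) and Cdk2 (0.33, -0.35 to 1.02) overlapped between the fractions, and their highest values were on A-/G+ replicate 3. Cdk4, a kinase partner of the D cyclins, differed by 0.22 (-0.05 to 0.48), while another of its probes passed with 0.53 ± 0.10 (adjusted p = 0.039).

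The inhibitors differed too. Cdkn2c, which encodes p18 INK4c and blocks Cdk4 and Cdk6, measured 7.84, 7.66 and 7.68 in A+/G+ and 8.30, 8.49 and 8.52 in A-/G+. It was 1.64-fold higher in A-/G+ (adjusted p = 0.017), the same direction as the S phase and mitotic genes. Cdkn1a, which encodes p21, measured 8.31, 8.22 and 8.48 in A+/G+ and 7.47, 7.06 and 8.91 in A-/G+, where A-/G+ replicate 3 stood above all other arrays.

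Cdkn1b, which encodes p27, measured 10.19, 10.10 and 10.06 in A+/G+ and 9.68, 9.75 and 10.13 in A-/G+, again with A-/G+ replicate 3 apart from the other A-/G+ arrays. Its other probe differed the opposite way by 0.72 (adjusted p = 0.12), so that its direction was not settled. Without A-/G+ replicate 3, Cdkn1a and Cdkn1b passed as higher in A+/G+, by 1.07 and 0.40 (adjusted p = 0.030 and 0.033). Cdk6 also passed (adjusted p = 0.0061), but it exceeded background clearly on 2 arrays of A+/G+ and on none of A-/G+, and no exact difference can be given for it. Thus 4 of the 56 members in place of 1 were higher in A+/G+ in this fit. The share of all 22374 genes called higher in A+/G+ rose as well, from 7.88% to 12.5%.

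The other genes of these pathways, taken from lists of 117 genes that do not include the 56, were measured on the same arrays. In DNA replication, 38 of 40 genes had the higher mean in A-/G+ and 6 passed the test, all in this direction, among them the kinase gene Cdc7 (1.25 ± 0.21), the replisome gene Wdhd1 (1.19 ± 0.17) and Pold1, the catalytic subunit of DNA polymerase delta (1.12 ± 0.14). In mitosis, 42 of 44 genes had the higher mean in A-/G+ and 21 passed, all in this direction, with Kif18b (1.05 ± 0.20), Cdca2 (0.99 ± 0.12) and separase, Espl1 (0.99 ± 0.17), as the largest differences among those past the test. Kifc1, a spindle motor gene chosen after its values were seen, differed more, by 1.63 ± 0.43 without overlap, but did not pass (adjusted p = 0.090). The median differences of the replication and mitotic lists were 0.41 and 0.66. Of all 22374 genes, 12268 had the higher mean in A-/G+. The share that passed as higher in A-/G+ was 5.01% of all genes and 9.49% of those well above background on all 6 arrays.

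The other regulators had a median difference of 0.15. Of these 33 genes, 4 passed as higher in A-/G+, which were E2f8 (0.94), Cdkn3 (0.86), Mycn (0.65) and Rbl1 (0.61), compared with 5.01% of all genes. Well above background on all 6 arrays were 25 of the 33, these 4 among them, and of all such genes 9.49% passed. The inhibitor gene Cdkn2b, p15 INK4b, passed as higher in A+/G+, but it was above background clearly on 1 array of A+/G+ and on none of A-/G+. Its difference was at least 2.94-fold under quantile normalization, and this bound did not hold under other processing. The log2 difference was -0.56 with the shift to the 75th percentile (limma, adjusted p = 0.40) and -0.30 with normexp background correction (adjusted p = 0.087). The call was lost in both. Over the 3 lists, 31 of 117 genes passed as higher in A-/G+. This count fell to 1, 2 and 7 without A+/G+ replicates 3, 1 and 2, and to 16 without A-/G+ replicate 1 or 2. The share of all 22374 genes fell too, from 5.01% to 0.863%, 1.1% and 0.885% without A+/G+ replicates 3, 1 and 2. It was 3.15% and 2.71% without A-/G+ replicates 1 and 2.

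**Figure D4:**
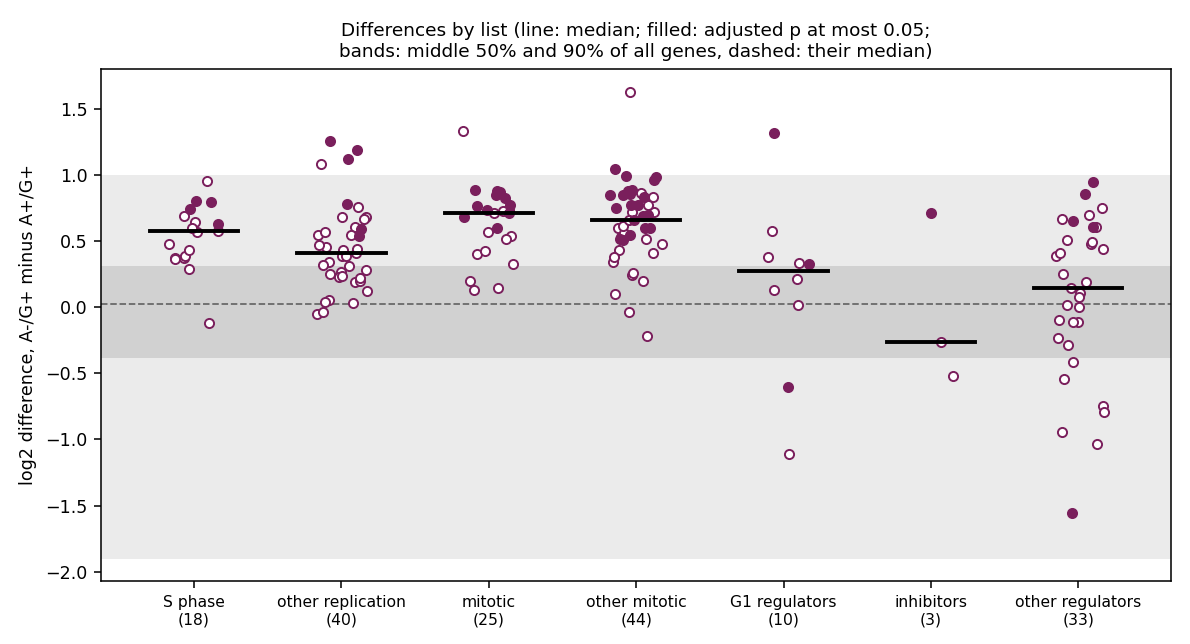
Difference in log2 intensity (A-/G+ minus A+/G+, y axis) of each gene in the 4 lists of members and the 3 lists of other genes (x axis, number of genes in parentheses), with the median of a list as a line and filled points for an adjusted p of at most 0.05. The replication and mitotic lists lie mostly above the dashed median of all genes, and the regulators lie on both sides of it.

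The level of the cell cycle genes also varied between samples of the same fraction. Of the 56 genes, 36 were highest on A-/G+ replicate 3 and 35 were lowest on A+/G+ replicate 1. The median level of the S phase genes was 10.59, 10.88 and 10.72 on the A+/G+ arrays and 10.88, 11.13 and 11.62 on the A-/G+ arrays. That of the mitotic genes was 9.39, 9.85 and 9.77 in A+/G+ and 9.97, 10.05 and 10.28 in A-/G+. Without A-/G+ replicate 3, the array on which most members peaked, the median differences were 0.43 for the S phase genes and 0.58 for the mitotic genes, and 17 members passed as higher in A-/G+.

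Markers of other cells moved with the fractions as well. Of the oligodendrocyte precursor markers, 3 of 6 passed as higher in A+/G+ (Olig1, Olig2 and Pdgfra), and the summed linear intensity of the list was 13950 to 17290 in A+/G+ and 1895 to 4535 in A-/G+. Of the multiciliated cell markers, 4 of 6 passed as higher in A+/G+ (summed 4782 to 6888 compared with 1671 to 6033, the highest A-/G+ sum resting on Mcidas, which measured 12.43 on A-/G+ replicate 1 and 10.28 to 10.85 elsewhere), of the neuronal markers 2 of 8 (10670 to 19170 compared with 3515 to 10330) and of the endothelial markers 1 of 6 (7519 to 11350 compared with 1522 to 7806). Of the microglial markers (summed 1195 to 2114 in A+/G+ and 1517 to 3809 in A-/G+) and the erythroid markers (9138 to 16370 and 2714 to 8024), 0 of 6 each passed in limma and in the methods' t-test, with 1 and 4 at an unadjusted p under 0.05.

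Of the markers of dividing neuronal precursors, Ptf1a, a transcription factor of interneuron progenitors, was higher in A-/G+ by 2.69, while Gad1, which encodes an enzyme of GABA synthesis, was higher in A+/G+ by 2.69. Pax2, another marker of interneuron precursors, stayed near background on all 6 arrays. Of the 8 granule neuron precursor markers, Pax6 was higher in A-/G+ by 1.54, and the median difference of the list was 0.03. Its summed intensity was 17130 to 20010 in A+/G+ and 24290 to 30730 in A-/G+, most of it from Zic1, which differed by 0.60 ± 0.15 (adjusted p = 0.080), whereas Barhl1 and Neurod1 differed by -1.10 ± 0.71 and -0.31 ± 0.74. Both Barhl1 and Neurod1 had their highest value of all 6 arrays on A-/G+ replicate 3, at 10.74 and 9.37. On the other A-/G+ arrays both lay below every A+/G+ array. Atoh1, the defining factor of these precursors, measured 8.42, 8.96 and 8.39 in A+/G+ and 6.92, 6.53 and 8.45 in A-/G+, so that A-/G+ replicate 3 lay within the A+/G+ range and the other A-/G+ arrays below it. The part of these cell types in the differences of the cell cycle genes was not tested, and in sorted bulk samples more dividing cells and more of these transcripts per cell cannot be told apart.

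**Figure D5:**
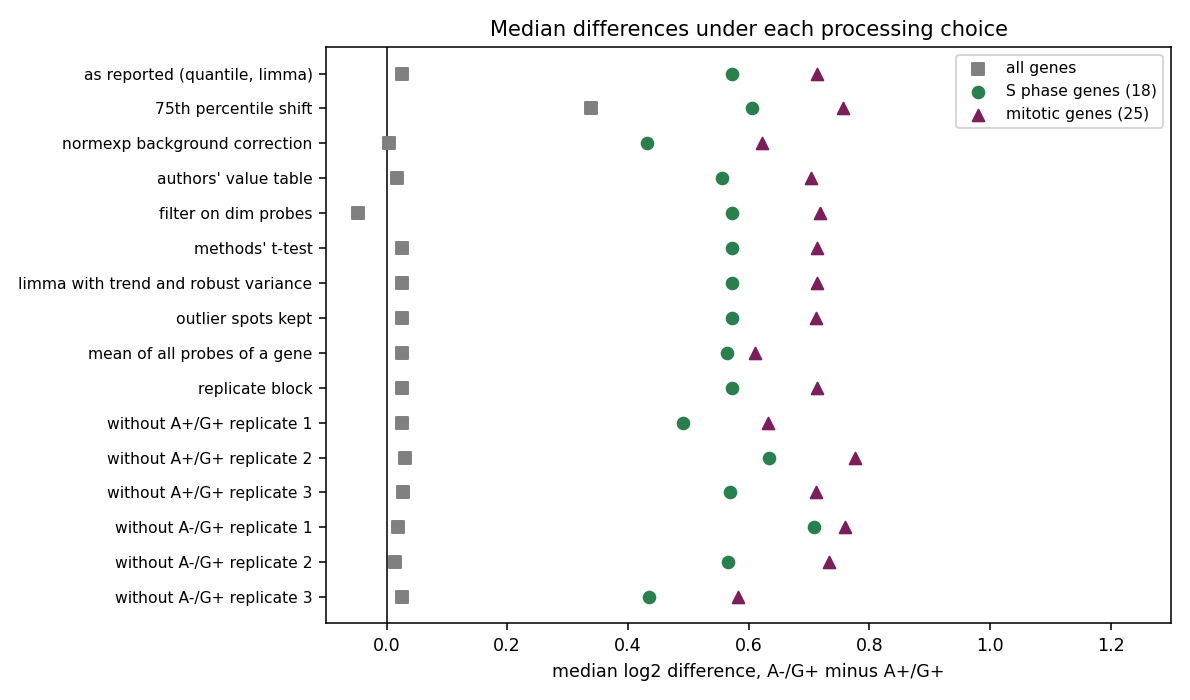
Median log2 difference (A-/G+ minus A+/G+, x axis) of all genes, the 18 S phase genes and the 25 mitotic genes under the reported analysis and each alternative (y axis). Both lists stay above all genes in every row, between 0.43 and 0.71 for the S phase genes and between 0.58 and 0.78 for the mitotic genes, and the gap narrows most with the shift to the 75th percentile.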

How the data were processed

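RNA of 6 sorted samples was hybridized to 1-color Agilent mouse arrays. Per the file headers, Feature Extraction 10.7.3.1 gave the deposited intensity of each spot after background correction. The authors also deposited quantile normalized log2 values. Here, control and outlier spots were removed, log2 intensities were quantile normalized, and the spots of each probe were averaged. Fractions were compared over 55681 probes with limma 3.58.1 in R 4.3.3 and Benjamini-Hochberg adjustment. The limits, adjusted p at most 0.05 and medians 4-fold apart, follow the methods of the study. Probe annotation is on mm9, and promoter sequences are from RefSeq GRCm38.p6. Named genes are members past both limits, up to 4 members per list and 3 genes per other list with the largest differences past the test, and a set of well known members. The members and lists were chosen with earlier results of these data known. A fold written as at least N compares the brighter mean with the detection limit of each array of the dimmer fraction, or the probe's own signal if higher. The fit was tested on simulated data in which 200 probes were moved. It called 19%, 46% and 61% of them at moves of 1, 2 and 3 on the log2 scale, with 6, 7 and 10 false calls. A gene that did not pass can therefore still differ. Some marker values are not reported here. Alternatives comprised normexp background correction (offset 50), scaling to the 75th percentile, the deposited log2 table, removal of dim probes, limma with a variance trend, Student's test as in the methods, inclusion of outlier spots, averaging the probes of each gene, blocking on replicate number, and omission of single arrays.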

Additional observations from a re-analysis of the deposited data

How the results depend on the processing

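The direction of the S phase and mitotic medians held under all 15 alternatives, whereas the counts of genes past the test did not. Leaving out 1 array at a time, the 6 fits called 1 to 17 members higher in A-/G+ and 0 to 4 members in A+/G+, 1 to 3 and 0 to 4 of the G1 regulators and inhibitors, and 1 to 34 and 1 to 5 of the other cell cycle and replication genes. Over all 22374 genes, these fits called 0.863% to 9.17% higher in A-/G+ and 2.35% to 12.5% higher in A+/G+. The medians were 0.43 to 0.71 for the S phase genes and 0.58 to 0.78 for the mitotic genes.

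With normexp, 29 members and 49 other genes were higher in A-/G+, compared with 7.63% of all genes, and Ccnd2 turned to -0.0027. With the methods' t-test, 8 members and 12 other genes were called for A-/G+ and 0 members for A+/G+, hence 0 of the G1 regulators and inhibitors (limma: 1). The shares of all genes called by this t-test were 2.61% for A-/G+ and 4.17% for A+/G+. With the shift to the 75th percentile, 0 members, 0 G1 regulators and inhibitors and 0 other genes were higher in A+/G+, compared with 7.9% of all genes. Under these 2 settings 1 member still had an unadjusted p under 0.05 in that direction. The filter on dim probes and limma with trend and robust variance each gave 2 other genes higher in A+/G+. Averaging all probes of a gene turned Cdkn1b to 0.23, and leaving out A-/G+ replicate 3 turned Ccnd2 to -0.026, the lowest of its values without 1 array, which reached 0.33. The cause of these changes was not tested.

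Samples with the same replicate number correlated by 0.088, 0.056 and 0.0058 in their deviations from the group means. Samples with different numbers correlated by -0.075 to 0.036. Deviations from means of 3 arrays cannot tell whether samples of the same number share an origin, and the fit as reported treats them as unpaired. With the replicate block, limma called 0 of all 22374 genes in either direction, hence 0 members, 0 G1 regulators and inhibitors and 0 other genes. The loss of calls was therefore not particular to the cell cycle genes. In this fit, 34 members in the direction of A-/G+ and 1 in that of A+/G+ had an unadjusted p under 0.05.

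With 3 arrays against 3, an exact permutation test cannot go below p = 0.10 (two-sided). The A-/G+ arrays had 18361 to 24745 probes well above background, compared with 26493 to 26676 on the A+/G+ arrays, and dim members such as Cdk1, Cdk6, Ccne2 and Aurkb have no reliable difference.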
